A study of Homo sapiens with 2 samples.

Results

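Vimentin (VIM) and the cytoplasmic actins ACTB and ACTG1 are abundant cytoskeleton genes, and the antisense genes VIM-AS1 and AL133415.1 lie on the opposite strand at VIM. These 5 genes were followed among the 58347 genes of a count table from U2AF2 eCLIP in HEL cells. They were chosen by symbol, and they were chosen for their counts: few reads on the sense genes and many on the antisense genes. That contrast is therefore given as a description, with no test. The samples were 2 biological replicates of 1 group, untreated HEL cells, a human erythroleukemia line. eCLIP fixes proteins to RNA with ultraviolet light, pulls down 1 protein, here U2AF2, and sequences the RNA attached to it. No input library was analysed, so no value is an enrichment.

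Vimentin forms intermediate filaments, and ACTB and ACTG1 encode the beta and gamma actins that build the microfilaments of nearly every cell. U2AF2 is the larger part of the U2AF splicing factor and binds the polypyrimidine tract, a stretch rich in C and U just before the 3' end of an intron. Pre-mRNAs with introns, such as those of VIM, ACTB and ACTG1, typically carry such a tract before a 3' splice site, and its length and content vary. An antisense gene is transcribed from the other strand, so its RNA is complementary to the sense RNA wherever the genes overlap.

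The libraries held 995428 and 1350116 counts on genes, 2.66% and 2.60% of the uniquely mapped reads, and a further 97.3% and 97.4% of those reads were tallied as lying on no feature. Whether the counting used strand, and if so in which direction, is not stated in the labels or files. Where genes on opposite strands overlap, their reads therefore cannot be told apart with certainty. Reads tallied as ambiguous numbered 17816 and 23938, and the strand setting was not tested. Of 12 markers of erythroid and megakaryocytic cells, the lineages of HEL, 5 held at least 10 counts in each library, against 24.8% of all protein-coding genes. GATA2, a blood progenitor transcription factor gene, with 411 and 485 counts, and GP1BA, a platelet glycoprotein gene, with 312 and 413, held most of the list's counts. Other defining markers were low or at 0: the erythroid transcription factor gene GATA1 held 6 and 14, KLF1 0 and 4, the fetal globin gene HBG1 0 and 1, the platelet integrin gene ITGA2B 0 and 2, and the platelet factor gene PF4 0 in both. None of 12 markers of other cell types reached 10 counts in each library. The summed counts were 790 and 1025 for the first list and 16 and 24 for the second, with the same uncertainty of strand.

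At the vimentin locus, nearly all counts were assigned to the antisense genes. VIM (chromosome 10, 17228259 to 17237593, plus strand, GRCh38) held 67 counts in replicate 1 and 69 in replicate 2. VIM-AS1 (17214239 to 17229985, minus strand) held 1219 and 1380. AL133415.1 (17233325 to 17234833, minus strand) held 1696 and 2126. In each library AL133415.1 was highest, VIM-AS1 came next and VIM was lowest. VIM received 2.25% of the locus counts in replicate 1 and 1.93% in replicate 2. Locus counts are the whole-gene totals of VIM and both antisense genes, without reads tallied as ambiguous or on no feature. Of the 1992 exon bases of VIM-AS1, 641 lie on VIM exons, so its total includes exons outside VIM. The antisense genes together held 43.5 times the counts of VIM in replicate 1 and 50.8 times in replicate 2. These genes were chosen for this contrast, so the values describe it only. Removal of PCR duplicates is not described in the sources used here, so reads need not be independent molecules.

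**Figure D1:**
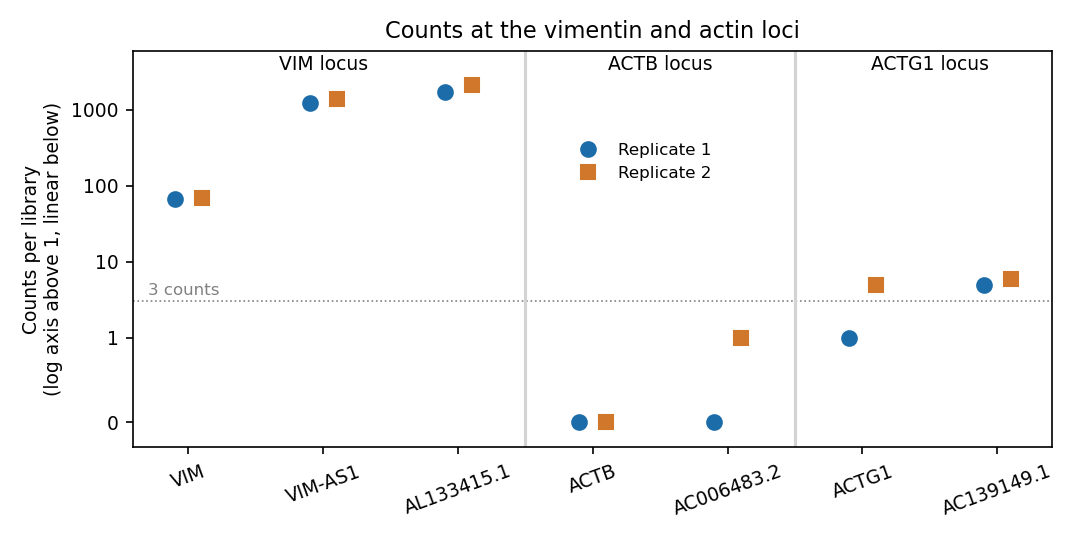
Counts per library (vertical axis, logarithmic above 1 and linear below) for the sense and opposite-strand genes of the vimentin and actin loci. Circles are replicate 1, squares are replicate 2, and the dotted line marks 3 counts. VIM-AS1 and AL133415.1 stand above 1000 counts in both libraries, VIM lies at 67 and 69, and the ACTB and ACTG1 loci lie at 6 counts or fewer.

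Scaled to library size, VIM-AS1 stood at 1122 ± 123 CPM (counts scaled to 1000000 gene counts, SD, n = 2) and AL133415.1 at 1639 ± 61.9 CPM, against 59.1 ± 10.4 CPM for VIM. Among 5452 antisense genes, AL133415.1 ranked 23 and VIM-AS1 37 by counts over both libraries, the values they were chosen for. Length set them further apart. Per kb of merged exon, AL133415.1 held 2321 ± 87.6 CPM, VIM-AS1 563 ± 61.7 CPM and VIM 11.5 ± 2.02 CPM (SD, n = 2). The exons of AL133415.1 cover only 706 bases, those of VIM-AS1 1992 and those of VIM 5158. On this scale AL133415.1 ranked 14 among 58084 genes with an annotated model and VIM-AS1 143, while VIM stood above 89.5% of protein-coding genes. The median protein-coding gene held 0.911 counts per kb over both libraries and VIM held 26.4, so VIM was low beside its antisense genes and not beside other coding genes.

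The positions of the exons differed between the antisense genes. The first merged exon of VIM-AS1 (17229345 to 17229985, 641 bases) lies wholly on VIM exon 1, and its first base is the last base of that exon. The other VIM-AS1 exons lie outside the VIM gene, the nearest 2380 bases before the start of the VIM transcript drawn. VIM-AS1 exons cover 0 of the 9 annotated 3' splice sites of VIM. AL133415.1 lies inside VIM. Its second exon (17233325 to 17233898, 574 bases) runs from VIM intron 2 through exon 3 and intron 3 into exon 4. Its first exon (17234702 to 17234833, 132 bases) lies on VIM exon 5 and the start of the next intron. AL133415.1 exons thereby cover 2 of the 9 sites, those of introns 2 and 3. Of its 706 bases, 342 lie on exons and 364 on introns of the VIM transcript drawn. Over all annotated VIM transcripts, 619 of the 706 lie on an exon. Gene counts do not say where within an exon a read fell.

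**Figure D2:**
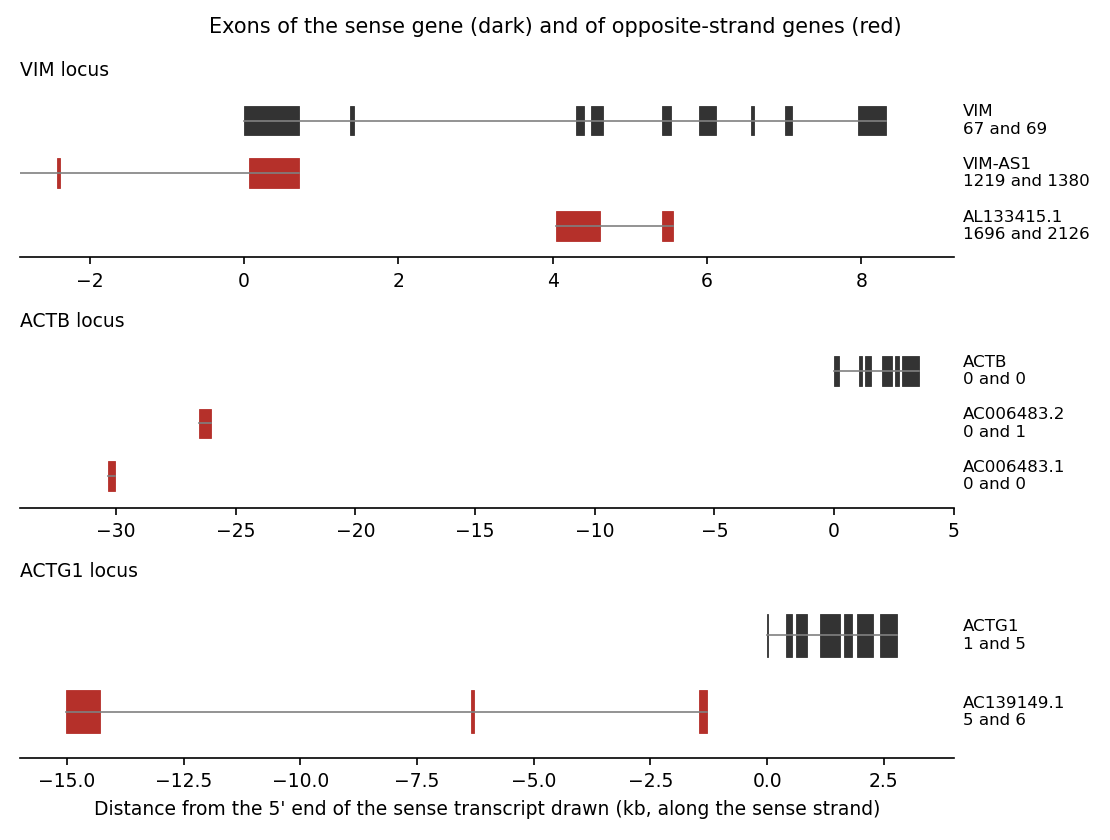
Exons of VIM, ACTB and ACTG1 (dark boxes) and of the genes on their opposite strand (red boxes), drawn to scale as the distance in kb from the 5' end of 1 sense transcript, with the counts of each gene in replicates 1 and 2 at the right. VIM-AS1 continues beyond the left edge, and only at VIM do opposite-strand exons lie on exons of the sense transcript.

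The splice sites that AL133415.1 covers are shown because they are the kind of sequence U2AF2 binds. Each line gives the last 40 bases of the intron and the first 3 of the exon on the VIM strand, 5' to 3', from the GENCODE 29 transcripts (GRCh38, plus strand), with the longest run of C and T before the closing 3 intron bases in capitals. The sites of introns 1 and 6, which no antisense exon covers, follow for comparison.
VIM intron 2 (chr10:17233547-17233589): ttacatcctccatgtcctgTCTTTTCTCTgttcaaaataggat
VIM intron 3 (chr10:17233730-17233772): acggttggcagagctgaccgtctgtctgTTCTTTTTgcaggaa
VIM intron 1 (chr10:17230610-17230652): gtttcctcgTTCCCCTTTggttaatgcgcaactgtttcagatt
VIM intron 6 (chr10:17235806-17235848): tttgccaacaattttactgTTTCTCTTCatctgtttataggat

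Read on the strand of AL133415.1, the same bases are purine runs, again in capitals.
AL133415.1 over VIM intron 2 (chr10:17233547-17233589, minus strand): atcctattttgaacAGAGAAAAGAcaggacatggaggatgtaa
AL133415.1 over VIM intron 3 (chr10:17233730-17233772, minus strand): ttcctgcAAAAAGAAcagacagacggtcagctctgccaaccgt

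The run of C and T was 10 bases long at intron 2 and 8 at intron 3 of VIM. Over the 20 bases from 23 to 4 before the exon, C and T made up 70% at intron 2 and 80% at intron 3. They made up 55% at intron 1, 80% at intron 6 and 75% at intron 7. The comparison set was 38643 3' splice sites of protein-coding genes that could be read from transcripts of the same gene. Their median was 70% (quartiles 60% and 80%) and their median run was 7 bases. The covered sites of VIM lay within those quartiles. Only sites lying within an exon of another transcript of their gene or, for VIM, of AL133415.1 could be read. These were 5 of the 8 in the VIM transcript drawn.

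The libraries were then compared gene by gene, a measure that the choice of genes did not use. An exact two-sided conditional binomial test was run on the 8983 genes that reached 10 counts in both libraries, among them VIM, VIM-AS1 and AL133415.1. At an adjusted p (Benjamini-Hochberg) under 0.05 it called 0.501% of them, and 0.111% were called lower in replicate 2. VIM-AS1 was among the latter, at 1209 CPM in replicate 1 and 1035 CPM in replicate 2, a ratio of 0.856 (exact 95% interval 0.792 to 0.925, adjusted exact p = 0.0226). AL133415.1 stood at 1682 and 1595 CPM, a ratio of 0.948 (0.889 to 1.01, adjusted exact p = 0.716), and VIM at 66.5 and 51.8 CPM, a ratio of 0.779 (0.548 to 1.11, adjusted exact p = 0.802). All 3 ratios were below 1, and VIM, with the fewest counts, had the widest interval. These intervals hold counting error alone, and the comparison is of these 2 libraries, not of conditions.

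The actin genes held almost no counts of their own, and the opposite-strand genes at their loci held almost none. Reads tallied on no feature are outside these counts, and whether reads in introns were counted is not stated. Low counts here therefore do not show that the loci had no U2AF2 reads. ACTB (chromosome 7, 5527147 to 5563784, minus strand) held 0 counts in both libraries, and 3 counts, the limit that a count of 0 allows, would be 2.98 CPM in replicate 1 and 2.25 CPM in replicate 2. ACTG1 (chromosome 17, 81509971 to 81523847, minus strand) held 1 and 5 counts, 2.37 ± 1.95 CPM (SD, n = 2), with replicate 1 under that limit. Such values are common among the counts: 20.2% of protein-coding genes held 0 in both libraries and 63.4% held fewer than 10 in all. A level of 10 counts in both libraries was reached by 24.8% of protein-coding genes and 37.6% of antisense genes. Of the genes followed here, VIM, VIM-AS1 and AL133415.1 reached that level, and they were chosen on these counts.

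Both actin loci have antisense genes, but with exons in other places. AC006483.2 (chromosome 7, 5556731 to 5557245, plus strand) lies in an intron of the longer annotated ACTB transcripts, 26022 bases from the nearest exon of the ACTB transcript drawn, and held 0 and 1 counts. The pseudogene AC006483.1, on the same strand, held 0. At ACTG1, the nearest exon of AC139149.1 (chromosome 17, 81514047 to 81527776, plus strand) lies 1292 bases from the ACTG1 transcript drawn, and the gene held 5 and 6 counts. Exons of opposite-strand genes cover 0 of 11 annotated 3' splice sites of ACTB and 0 of 9 of ACTG1. No opposite-strand exon lies on an annotated exon of ACTB or ACTG1. The table carries the gene versions ENSG00000075624.13 and ENSG00000184009.9, while the annotation used here has ENSG00000075624.14 and ENSG00000184009.11, so the gene models behind the actin counts may differ from those drawn. The versions of VIM, VIM-AS1 and AL133415.1 are identical.

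The actin genes also have introns with polypyrimidine tracts. The readable site richest in C and T is shown for each, in the same layout, on the minus strand. These sites were picked for that content, so they do not stand for the other sites of the genes.
ACTB intron 2 (chr7:5529398-5529440): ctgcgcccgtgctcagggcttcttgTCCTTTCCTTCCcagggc
ACTG1 intron 3 (chr17:81511624-81511666): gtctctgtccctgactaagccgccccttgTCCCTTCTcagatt

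C and T made up 90% of the tract at ACTB intron 2, with a run of 12 bases, and 80% at ACTG1 intron 3, with a run of 8. The actin sites that could be read, 3 of 5 for ACTB and 4 of 6 for ACTG1, ranged from 50% to 90%. The readable VIM sites ranged from 55% to 80%.

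ACTB and ACTG1 resemble each other and a large family of processed pseudogenes, and reads mapping to several places, 22.1% and 20.7% of all reads, are outside the gene counts. The coding sequences, 1125 bases each, were identical at 91.3% of positions, and the longest identical stretch was 59 bases. Their first 60 coding bases are shown 5' to 3' with the 10 differing positions in capitals, since they show how closely the differences are spaced.
ACTB: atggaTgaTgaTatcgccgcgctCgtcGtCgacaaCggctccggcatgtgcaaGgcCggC
ACTG1: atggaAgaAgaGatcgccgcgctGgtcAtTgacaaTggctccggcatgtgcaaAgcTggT

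Of all 30-base windows of the ACTB transcript, 29.9% also occurred in transcripts of other genes, on either strand, against 24.8% for ACTG1 and 0.381% for VIM. The genes sharing most windows with ACTB were the pseudogene ACTBP2 and POTEI, POTEE and POTEJ, which carry an actin-like part. In windows of 50 bases the shares fell to 10.3% for ACTB, 4.72% for ACTG1 and 0% for VIM, and in windows of 100 bases, the read length given in the labels' protocols, to 0.165% for ACTB and 0% for ACTG1. Most windows of each actin transcript thus had no exact match in other annotated transcripts at these lengths. Matches that allow differing bases were not searched, and reads trimmed by cutadapt may be shorter than 100 bases. Unannotated copies in the genome were not searched, and how many multimapping reads came from actin genes was not tested. The 30 actin pseudogenes in the table held 44 and 52 counts in all, of which ACTG1P10, opposite KANTR, held 28 and 38. It was the only one of the 30 with at least 10 counts in each library, against 8.14% of all processed pseudogenes.

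VIM-AS1 and AL133415.1 were next placed among all antisense genes, grouped by what their exons cover on the other strand. This grouping was made after the VIM locus had been seen, and it is a description. Antisense genes whose exons cover a 3' splice site of a protein-coding gene, as AL133415.1 does, had a median of 61.2 counts per kb over both libraries (1412 genes). Those covering an exon but no such site, as VIM-AS1 does, had a median of 21.5 (1527 genes). Those lying only in introns, as AC006483.2 and AC139149.1 do, had 4.16 (1832 genes), and those with no opposite-strand coding gene had 0 (681 genes). Each of the antisense genes at VIM stood near the top of its group, but they were chosen for high counts, so these ranks are not a result. AL133415.1, with 5414 counts per kb, ranked 6 of 1412, and VIM-AS1, with 1305, ranked 19 of 1527. The actin-locus genes stood nearer the middle of theirs, AC139149.1 with 11.5 counts per kb above 59.8% of the group and AC006483.2 with 1.94 above 43.8%.

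**Figure D3:**
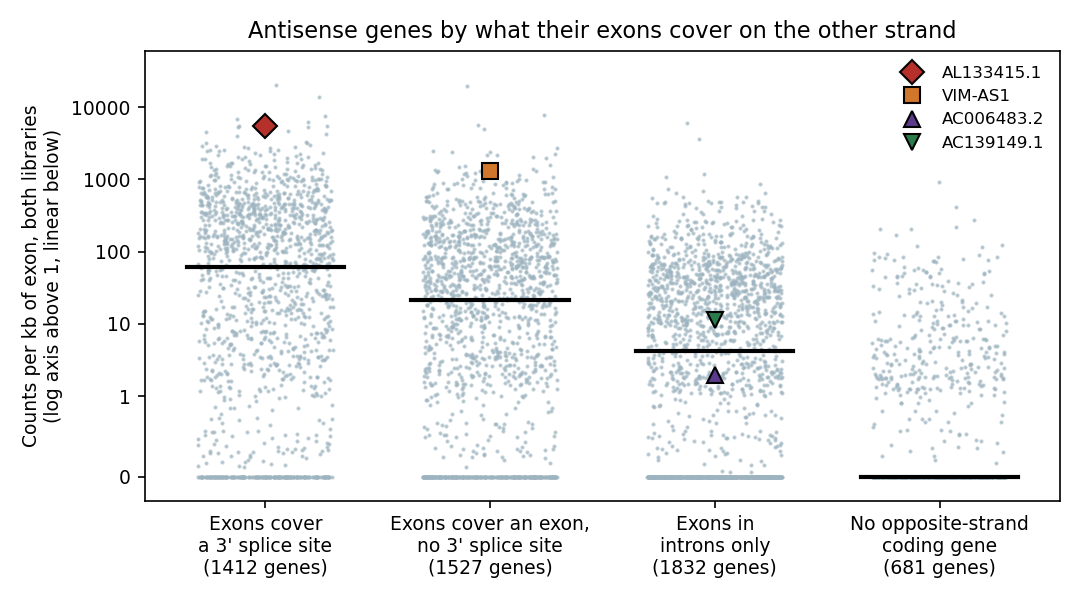
Counts per kb of exon over both libraries (vertical axis, logarithmic above 1 and linear below) for 5452 antisense genes in 4 groups by what their exons cover on the opposite strand. Dots are genes, bars are medians (61.2, 21.5, 4.16 and 0) and large symbols are the antisense genes of the VIM, ACTB and ACTG1 loci.

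The pairing of few own counts with many opposite-strand counts was not limited to VIM. Of 3699 protein-coding genes with an opposite-strand non-coding gene over their exons, 56.6% held fewer counts than those non-coding genes. VIM ranked 19 of the 3699 by opposite-strand counts, 6421 over both libraries, and 453 by their ratio to its own counts. VIM was chosen for these counts. Opposite-strand counts here are totals of whole non-coding genes, also where their exons lie away from the coding gene. The 5 genes nearest to VIM in own and opposite-strand counts, by distance on log2 scales over the 2 libraries, were H2AFY, PITRM1, MAZ, PIEZO1 and THBS1. H2AFY, a histone variant gene, held 45 and 52 counts against 3436 and 4366 on its opposite-strand non-coding genes. PIEZO1, a mechanosensitive ion channel gene, held 107 and 143 against 3530 and 4463, and THBS1, the thrombospondin 1 gene, 89 and 126 against 4425 and 6068. For the actins no nearest genes can be singled out, since 3752 other coding genes shared the values of ACTB and 469 those of ACTG1.

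**Figure D4:**
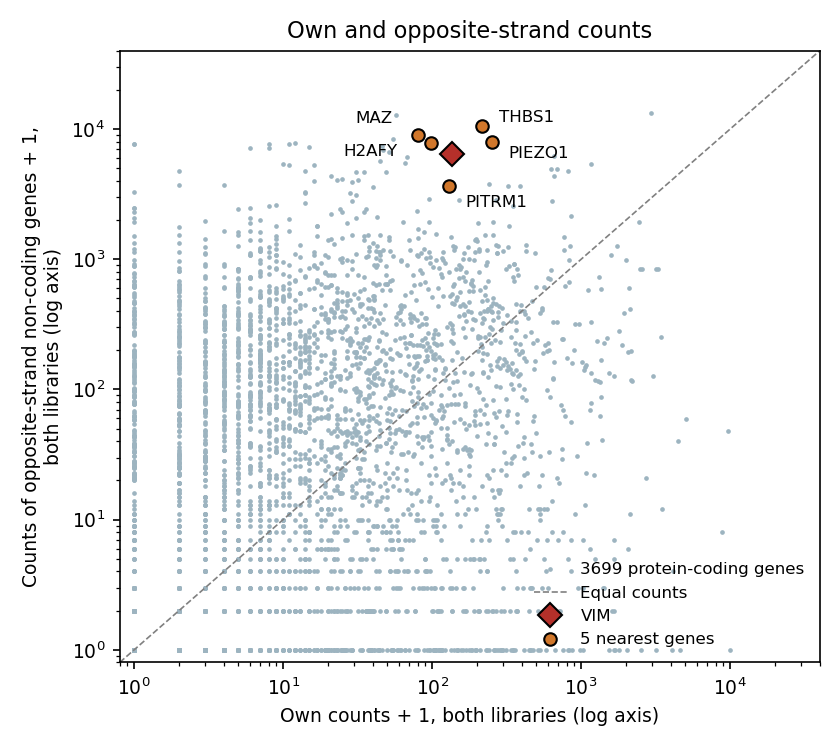
Own counts plus 1 (horizontal axis) against counts of opposite-strand non-coding genes plus 1 (vertical axis), both over the 2 libraries and on logarithmic axes, for 3699 protein-coding genes. VIM (diamond) and the 5 nearest genes (large circles) lie far above the dashed line of equal counts.

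Other genes of the cytoskeleton were read from lists of their roles. Among the 7 actins none reached 10 counts in each library. The smooth muscle actin ACTA2 came nearest with 9 and 11 counts, followed by ACTG1, and ACTB was the only actin at 0 in both. Among 39 actin-binding genes, 19 reached 10 counts in each library and their median was 27 counts over both, against a median of 4 for all protein-coding genes. MYL6, a myosin light chain gene, led with 417 and 548 counts, followed by MYH10, a non-muscle myosin heavy chain gene, with 260 and 321, and CFL1, which encodes the actin-severing protein cofilin, with 186 and 245.

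Of 18 intermediate filament genes, 8 reached 10 counts in each library. The keratin gene KRT18 led with 178 and 234 counts, VIM came next, and the keratin gene KRT8 held 52 and 69. The desmin gene DES, the neurofilament gene NEFM and the keratin gene KRT1 held 0 in both libraries. Among 7 genes for proteins that link filaments to other structures, only PPL, the periplakin gene, reached that level, with 137 and 191 counts. MACF1 held 7 and 10. Of 11 tubulin genes 5 did, led by TUBB6 with 210 and 232 counts. TUBA1A held 32 and 64, and TUBA4A held 53 and 43. SRF and its cofactors MRTFA and MRTFB, which drive transcription of actin genes, held 9 and 5, 62 and 69, and 1 and 2 counts.

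**Figure D5:**
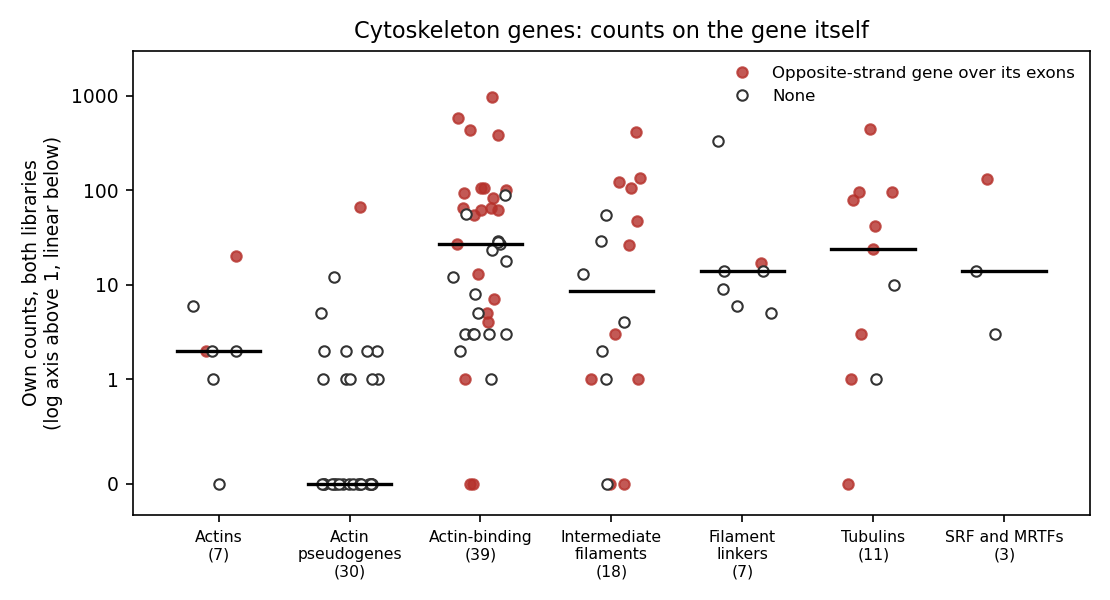
Own counts over both libraries (vertical axis, logarithmic above 1 and linear below) for genes of 7 cytoskeleton lists, with the number of genes in brackets. Filled points are genes whose exons overlap an opposite-strand gene, open points have none, and bars are medians, which run from 0 for actin pseudogenes to 27 for actin-binding genes.

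Many of the cytoskeleton genes with counts overlapped a gene on the other strand. An exon overlap of this kind was present in 15 of the 19 actin-binding genes that reached 10 counts in both libraries, and in 22 of all 39. It was present in 6 of the 8 such intermediate filament genes and 11 of all 18, and in 5 of the 5 such tubulin genes and 9 of all 11. No test was made of these shares. Over all protein-coding genes, 33.4% had such an overlap, as did 3063 of the 4924 that reached 10 counts in each library. That level was reached by 46.3% of coding genes with such an overlap and 14.1% of those without. Among the 85 genes of the 6 coding lists, 46 had such a partner, and in 30 of them (65.2%) the partner held more counts, against 57.1% of the 6622 coding genes with a partner. The partners held at least 1000 counts over both libraries at 9 of the 46 (19.6%), against 6.48% of those 6622. This threshold was set after the values were seen, and VIM, which was chosen for its counts, was first of the 9 with 6421. TUBB, a beta tubulin gene, came next with 24 own counts against 4152 on AL662797.1. CAP1, which encodes a protein that turns over actin monomers, held 106 against 3905 on PPT1. TPM4, a tropomyosin gene, held 94 against 2922 on AC008894.3. PFN1, the profilin gene, held 13 against 2137 on ENO3. No gene of these lists held more than 965 own counts over both libraries. The threshold itself therefore fixed that the partners held more in each of the 9. Partner counts are totals of the whole partner gene, also where its exons lie away from the coding gene. The ratio ran from 4.66 at CFL1 to 173 at TUBB.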

How the data were processed

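U2AF2 was immunoprecipitated after ultraviolet crosslinking and its RNA was sequenced in paired 100-base reads, per the labels' protocols. The tools cutadapt and STAR 2.7.0f and the build GRCh38.p10 are named per the submitters' processing notes. The deposited values are raw counts per gene. For the counting step, strand setting, annotation and removal of PCR duplicates, details are not given in the sources used here. Tallies of ambiguous reads (17816 and 23938), multimapping, unmapped and no-feature reads were left out of library sizes.

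Genes were matched without version to GENCODE 29 (GRCh38), 58084 of 58347. Library sizes were adjusted with TMM factors over genes reaching 10 counts in both libraries, with edgeR 4.0.16 in R 4.3.3 (factors 1.01 and 0.987). The exact binomial test used scipy 1.17.1 and was run on simulated counts that held counting error only. That run cannot show how the test behaves with further variation between libraries. With 1 group, the quasi-likelihood test had no contrast. DESeq2 1.42.0 size factors were an alternative. The 3' splice site and actin sequences came from the GENCODE 29 transcripts. The transcript drawn is the basic transcript with the most exons. The members and lists were chosen with earlier results of these data known. Named genes were the 5 members, genes overlapping or flanking VIM, ACTB and ACTG1, the leading genes of each list, and the 5 genes nearest to VIM. For list genes with 1000 or more opposite-strand counts, the rule was set after their values were seen. The list of vimentin pseudogenes named VIMP and a number had 0 genes.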

Additional observations from a re-analysis of the deposited data

How the results depend on the processing

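No paired analysis was possible because the 2 libraries form 1 group. The count of genes that differ between the libraries, 45, was 71 with no count minimum, where 30752 genes were tested, and 48 to 62 under the other alternatives, one of them, TMM factors over all genes (55), added after seeing the data. VIM-AS1 was called under each of these alternatives, with adjusted exact p from 0.00203 to 0.0364. Per kb of gene span in place of exon, the levels were 6.33 CPM for VIM, 71.3 for VIM-AS1 and 1086 for AL133415.1. With a minimum of 1 count in each library, 2 actins, 33 actin-binding genes, 6 filament linkers, 8 tubulins, 3 genes of SRF and the MRTFs and 6 actin pseudogenes passed. Leaving out a replicate gave 0 to 1 actins, 1 to 3 filament linkers and an antisense to sense ratio at VIM of 43.5 to 50.8. At this depth, 1 count is near 1 CPM, so levels of ACTB, ACTG1 and the genes opposite them rest on few counts or none. ACTB, AC006483.2 and AC006483.1 lay under the limit of 3 counts in both libraries, and ACTG1 in replicate 1 only. AC139149.1, at 4.96 CPM in replicate 1 and 4.5 CPM in replicate 2, lay above it in both.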

Other observations

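The genes that flank the actin genes include the actin-bundling fascins. FSCN1, next to ACTB at a distance of 29038 bases, held 14 and 18 counts, and FSCN2, next to ACTG1 at 4548 bases, held 63 and 72. On their other sides, FBXL18 held 5 and 3 counts and LINC01971 held 0. The genes beside VIM, TRDMT1 and ST8SIA6, held 5 and 6 and 10 and 14 counts. Both antisense genes at VIM held more counts than any of these, but they were chosen for high counts, so that difference is not a result. KRT8 and KRT18, keratin genes that form a filament pair and whose annotated exons overlap on opposite strands, held 52 and 69 and 178 and 234 counts.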
